A study of Bos taurus with 11 samples.

Results

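Interleukin 1, tumour necrosis factor and the inflammatory chemokines were followed here through 10 genes, IL1A, IL1B, IL1RN, TNF, CXCL8, CXCL2, CXCL3, CCL3, CCL4 and CCL5, of the 24839 gene names on an array, in blood mononuclear cells of cattle. Every array probe whose gene name in the scanner files was 1 of these, or the older names IL8 (CXCL8) and GRO1 (counted with CXCL2), was taken, which gave 27 of the 43653 probes, and each was read apart. Ladakhi cattle, native to the high altitude of Ladakh, gave 5 arrays and Sahiwal cattle, a low-altitude breed sampled at baseline, gave 6 arrays. All animals were female, each array held the peripheral blood mononuclear cells (PBMCs, the lymphocytes and monocytes of the blood) of 1 animal, and the labels give neither ages nor the way the cells were isolated. The comparison asks how the blood cells of cattle native to high altitude differ from those of low-altitude cattle.

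Interleukin 1 alpha and beta (IL1A, IL1B) and tumour necrosis factor (TNF) are early signals of inflammation made mainly by activated monocytes and macrophages. IL1RN encodes the receptor antagonist that occupies the interleukin 1 receptor without signalling. The CXC chemokines CXCL8, CXCL2, CXCL3 and GRO1 draw neutrophils, whereas the CC chemokines CCL3 and CCL4 draw monocytes and lymphocytes. CCL5 differs from the others in that T cells and NK cells are a main source of it in resting blood. The messages of most of these genes are made within a short time after stimulation through NF-kappa-B and are short-lived, and AU-rich elements built on the pentamer ATTTA mark many of them for decay.

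The probes are oligonucleotides, and 3 of the 27 (11.1%) held the pentamer ATTTA, against 7.45% of all 43653 probes. Its reverse complement TAAAT was in 2 of the 27 and in 3790 of all. The 3 windows below, read from the scanner files, show the pentamer in capitals with the letters around it. They were chosen because these are all the member probes that hold it. A match is a description of the letters and not a site. Positions are those of the whole probes on HGSC Btau_3.1, in the strand order of the files.
IL1B probe A_73_P040131, minus strand of chr11:48249271-48249330: gcatagcatagcATTTAtgaatagggaaga
GRO1 probe A_73_P042021, plus strand of chr6:92073748-92073807: gttaatgtagggaatgtatgtatacATTTA
CCL4 probe A_73_P102796, minus strand of chr19:13801734-13801793: atcctgttccttctcttaATTTAatttttt
CXCL2 and CXCL3 are close relatives on the same chromosome, and the probes for them were alike. Laid side by side without gaps, 45 of 55 bases (81.8%) were identical. The 30-base stretch where they differ least is shown to make plain how near they are, with the 2 bases that differ in capitals. Signal of the one message on the other probe was not tested.
CXCL2 probe A_73_114724, plus strand of chr6:91929433-91929492: cttgtaaggcaCaatgccttgtttCatgtt
CXCL3 probe A_73_108688, plus strand of chr6:92062155-92062214: cttgtaaggcaTaatgccttgtttAatgtt

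The genes sit in 4 places of that build. IL1A, IL1B and IL1RN lie on chromosome 11, the CXC chemokines on chromosome 6, the CC chemokines on chromosome 19 and TNF on chromosome 23. The GRO1 probe is described in the files as chemokine ligand 1 and by RefSeq as GRO1, so it is called GRO1 below, although the choice of probes counts it with CXCL2. A further probe that the files name CXCL2, A_73_P031501, carries a record that RefSeq now lists under GRO1.

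Levels are log2 of the processed signal relative to a scaling value of the same array, the 75th percentile of the 2705 probes well above background on all 11 arrays, and differences are Ladakhi minus Sahiwal. A level is compared only within a probe. The Ladakhi arrays were much dimmer, with 4243 to 6608 spots well above background on each, against 17517 to 20574 on the Sahiwal arrays. The lowest level that still counted as well above background averaged -3.66 on the Ladakhi arrays (-4.29 to -3.03) and -8.22 on the Sahiwal arrays (-8.91 to -7.38). Altitude, scanner model, extraction version and slide changed with the breed. Breed, altitude and platform cannot be told apart in any difference below. In whole PBMCs, fewer cells of a type and less RNA per cell cannot be told apart either.

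**Figure D1:**
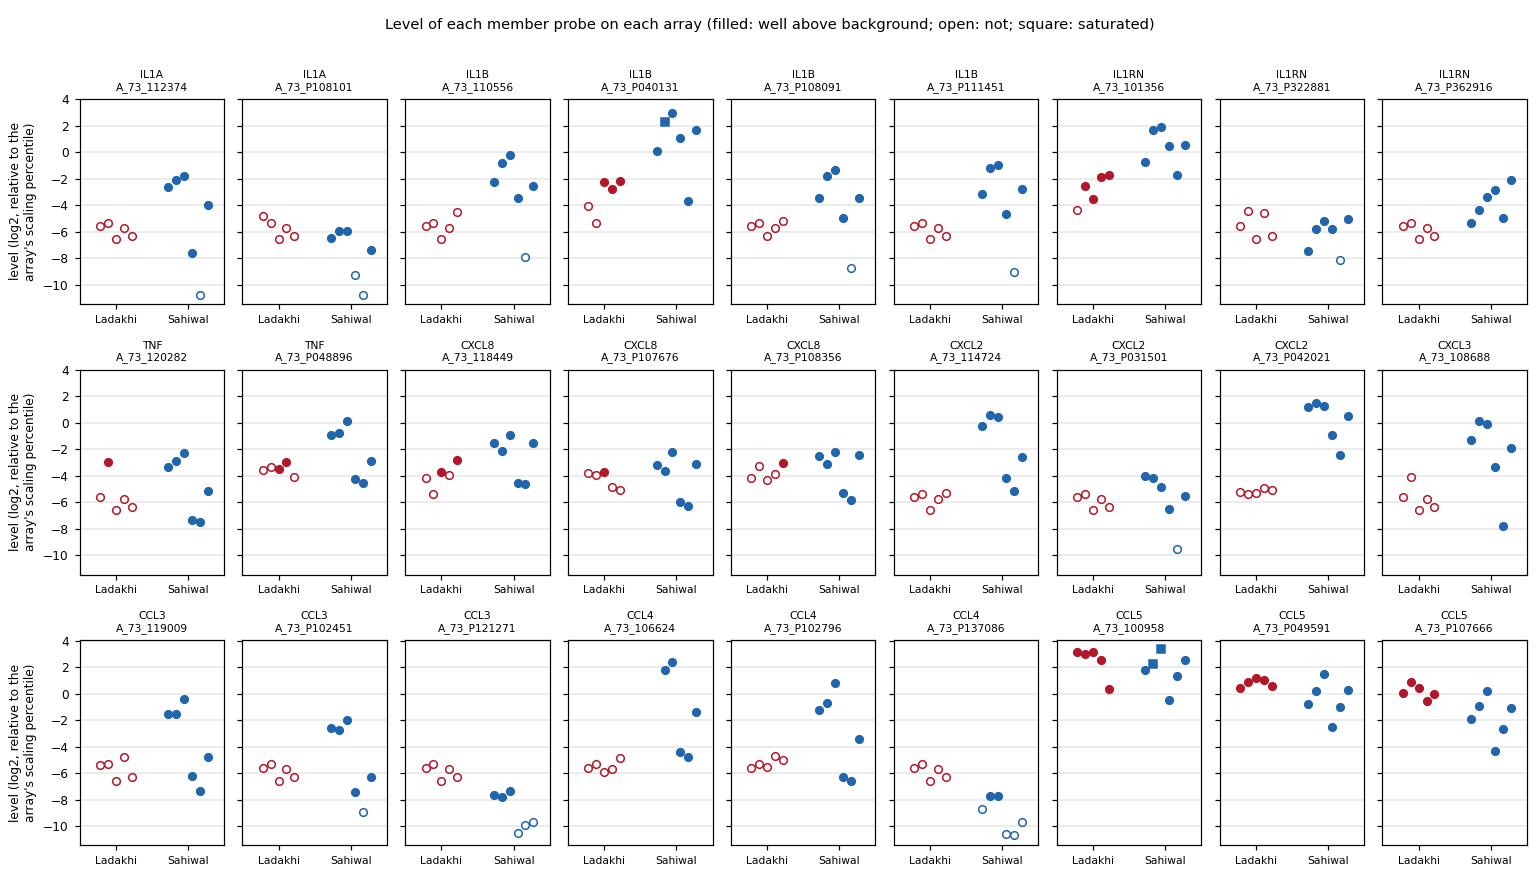
Level of each of the 27 member probes (vertical axis, log2 relative to the array's scaling percentile) on the 5 Ladakhi and 6 Sahiwal arrays, 1 point per animal in the order of the animal numbers. Filled points were well above background, open points were not, and squares were saturated. Most probes of the interleukin, TNF and chemokine genes have open Ladakhi points, and the 3 CCL5 probes have filled points in both breeds.

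Ladakhi arrays detected few of these probes, detected meaning well above background. Between 3 and 8 of the 27 were detected on each Ladakhi array, against 17 to 27 on each Sahiwal array. Of all spots, 9.69% to 15.1% were detected on each Ladakhi array and 40.0% to 47.0% on each Sahiwal array. Only the 3 CCL5 probes and 1 IL1RN probe were measured in both breeds, that is, detected on 4 or more arrays of each, while 6 probes were detected on 1 to 3 Ladakhi arrays and 17 on 0. Of the 25 probes tested, 9 differed between the breeds at an adjusted p under 0.05 (limma, Benjamini-Hochberg over all probes tested), with 8 lower and 1 higher in Ladakhi. This is 36% of them, beside 41.8% of all 17865 probes tested, among which 17.3% were lower and 24.5% higher. Because 21 of the 25 passed the filter through their Sahiwal arrays, the number that came out lower is not read as a property of these genes. Among the 4 probes measured in both breeds 2 differed, beside 32.7% of all 4048 such probes, and among the 15 tested probes on 0 Ladakhi arrays 6 did, beside 46.6%.

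IL1B, the main secreted interleukin 1 of monocytes, was lower in Ladakhi cells by its brightest probe, A_73_P040131. Its level was -4.02, -5.30, -2.24, -2.78 and -2.17 in Ladakhi animals 1 to 5, the first 2 not well above background, against 0.14, 2.26 (saturated), 2.99, 1.1, -3.66 and 1.69 in Sahiwal animals 1 to 6. Sahiwal animal 5 lay among the Ladakhi animals, and the other 5 Sahiwal animals lay above all of them. The difference was -4.06 (SE 0.97, adjusted p = 0.0049), and -3.46 with the dim Ladakhi signals raised to their arrays' limits. The saturated Sahiwal spot makes its size a minimum on that side.

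The other 3 IL1B probes were on 0 Ladakhi arrays. A_73_110556 (chromosome 11, 48249630 to 48249692) read -2.22, -0.78, -0.22, -3.45, -7.90 and -2.55 in Sahiwal, the value of animal 5 not well above background. It was at least 1.75-fold lower in Ladakhi. The fitted difference of -2.69 passed (adjusted p = 0.048), a call that ended in 19 of 25 alternatives. With dim signals raised to the limits, as in that fold, it did not pass (adjusted p = 0.45). The 2 remaining probes, A_73_P108091 and A_73_P111451, which share most of their sequence, did not pass (adjusted p = 0.186 and 0.106). All 3 were lowest in Sahiwal animal 5 and highest in animal 3, as the brightest probe was.

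IL1RN, the antagonist, was lower in Ladakhi cells and is the only gene of this set measured in both breeds that was. Probe A_73_101356 (chromosome 11, 48543380 to 48543439) read -4.39 (not well above background), -2.53, -3.55, -1.88 and -1.71 in Ladakhi animals, against -0.69, 1.72, 1.90, 0.45, -1.71 and 0.54 in Sahiwal animals. The breeds touched only where Sahiwal animal 5 stood at the level of Ladakhi animal 5. The level was 9.05-fold lower, at -2.81 ± 1.14 (SD, n = 5) in Ladakhi animals and 0.37 ± 1.39 (SD, n = 6) in Sahiwal animals (adjusted p = 0.00199, and p = 0.00649 in an exact two-sided permutation test over all splits of the animals). The call held in each of 25 alternatives, with differences from -3.59 to -2.78. A second probe, A_73_P362916, was on 0 Ladakhi and 6 Sahiwal arrays. Its fitted difference of -2.09 passed (adjusted p = 0.00662), but rests on Ladakhi signals that were not well above background. Its Sahiwal mean of -3.83 lies under the Ladakhi limit, so no fold is given and the probe is not read as lower. The third, A_73_P322881, on 0 Ladakhi and 5 Sahiwal arrays, did not pass (adjusted p = 0.339).

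IL1A, the membrane-associated interleukin 1, was not detected in Ladakhi cells and covered the widest range of the 27 probes over the Sahiwal animals. Probe A_73_112374 (chromosome 11, 48187738 to 48187797) read -2.63, -2.10, -1.76, -7.60, -10.74 and -3.94 in Sahiwal animals 1 to 6, where the value of animal 5 was not well above background. The 5 Ladakhi values, none well above background, ran from -6.57 to -5.34. No fold was obtained for this probe or for the dimmer A_73_P108101. Their fitted differences, against dim Ladakhi signals, were opposite in sign, at -1.11 and 1.86, and neither passed (adjusted p = 0.518 and 0.0645).

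TNF did not pass by either probe. A_73_P048896 (chromosome 23, 27531317 to 27531376) read -3.57, -3.34, -3.46, -2.95 and -4.05 in Ladakhi animals, well above background in animals 3 and 4 only, against -0.90, -0.73, 0.12, -4.24, -4.53 and -2.88 in Sahiwal animals. Counting signals not well above background, Sahiwal animals 4 and 5 lay below every Ladakhi animal, while animals 1, 2, 3 and 6 lay above. The difference was -1.28 (SE 0.74, adjusted p = 0.18). Probe A_73_120282, detected in Ladakhi animal 2 alone at -2.94, ran from -7.46 to -2.27 in Sahiwal and gave -0.70 (adjusted p = 0.58), a sign that turned with the treatment of dim signals.

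CXCL8, the principal neutrophil attractant of cattle, did not pass by any of its 3 probes. The brightest, A_73_118449 (chromosome 6, 91793928 to 91793987), read -4.19, -5.34, -3.70, -3.92 and -2.81 in Ladakhi animals, well above background in animals 3 and 5, against -1.53, -2.10, -0.94, -4.51, -4.60 and -1.52 in Sahiwal animals. Sahiwal animals 4 and 5 lay within the Ladakhi range and the other 4 lay above it. The difference was -1.46 (SE 0.68, adjusted p = 0.0978), and without Sahiwal animal 5 it was -1.88 (adjusted p = 0.029), without animal 4 -1.86 (adjusted p = 0.0348). Probes A_73_P107676 and A_73_P108356 gave -0.22 and -0.18 (adjusted p = 0.816 and 0.841), with signs that turned under several alternatives.

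GRO1 had the largest fitted difference and the lowest adjusted p of the 25 probes tested. That rank is a description, since GRO1 passed the filter through its Sahiwal arrays and its Ladakhi signals were dim. Its probe A_73_P042021, shown above, read -5.23, -5.34, -5.28, -4.88 and -5.05 in Ladakhi animals, none well above background, against 1.24, 1.49, 1.27, -0.94, -2.39 and 0.52 in Sahiwal animals. In processed signal this is 25.3 to 47.1 units in Ladakhi, against 1802 to 38151 units in Sahiwal, on 2 scanners whose units differ. The breeds did not overlap, and all 6 Sahiwal animals lay above the highest Ladakhi limit. GRO1 was at least 14.5-fold lower in Ladakhi. The fitted difference of -5.36, which rests on dim Ladakhi signals, passed (limma adjusted p = 4.7e-05, exact permutation p = 0.00433). With dim signals raised to the limits, as in that fold, it was -3.86 and passed too (adjusted p = 8.3e-06). The call held in each of 25 alternatives.

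By the 2 similar probes shown above, CXCL2 and CXCL3 were detected in every Sahiwal animal and in no Ladakhi animal. CXCL2 probe A_73_114724 read -5.59, -5.34, -6.57, -5.73 and -5.30 in Ladakhi animals, none well above background, against -0.25, 0.60, 0.42, -4.13, -5.14 and -2.57 in Sahiwal animals, with 4 of the 6 above the mean Ladakhi limit of -3.66. It was at least 3.52-fold lower in Ladakhi. The fitted difference of -3.86 passed (adjusted p = 0.00469). That call ended with dim signals raised to the limits, as in that fold (adjusted p = 0.0627), and with normexp (adjusted p = 0.109). CXCL3 probe A_73_108688 read -5.59, -4.10, -6.57, -5.73 and -6.32 in Ladakhi animals, none well above background, against -1.30, 0.16, -0.05, -3.34, -7.81 and -1.87 in Sahiwal animals. Of the Sahiwal animals, 5 lay above the mean Ladakhi limit and animal 5 lay under it. CXCL3 was at least 2.45-fold lower. The fitted difference of -3.30 passed (adjusted p = 0.029), a call that ended in 9 of 25 alternatives. With dim signals raised to the limits, as in that fold, it did not pass (adjusted p = 0.255). Sahiwal animals 1, 2 and 3 were high for both genes and animals 4 and 5 low. The other probe named CXCL2, A_73_P031501, ran from -9.52 to -4.04 in Sahiwal and did not pass (adjusted p = 0.896).

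CCL4 was lower in Ladakhi cells by 1 of its probes, and CCL3 did not pass. CCL4 probe A_73_106624 (chromosome 19, 13801571 to 13801630) read -5.59, -5.34, -5.92, -5.73 and -4.89 in Ladakhi animals, none well above background, against 1.74, 2.37, -4.45, -4.83 and -1.40 in Sahiwal animals 2 to 6, the spot of animal 1 being left out for its outlier mark. Animals 2, 3 and 6 lay above the mean Ladakhi limit and animals 4 and 5 under it. It was at least 5.09-fold lower in Ladakhi. The fitted difference of -4.18 passed (adjusted p = 0.0133). That call ended with dim signals raised to the limits, as in that fold (adjusted p = 0.063). The second CCL4 probe, A_73_P102796, read -1.25, -0.70, 0.79, -6.33, -6.57 and -3.40 in Sahiwal animals and did not pass (adjusted p = 0.107). Without Sahiwal animal 5 or 4 it passed, with adjusted p = 0.0255 and 0.0331.

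CCL3 probe A_73_119009 read -5.42, -5.34, -6.57, -4.82 and -6.32 in Ladakhi animals, none well above background, against -1.57, -1.52, -0.45, -6.25, -7.39 and -4.83 in Sahiwal animals (adjusted p = 0.142). Its Sahiwal mean of -3.67 lay just under the Ladakhi limit, so it has no fold, and A_73_P102451 did not pass either (adjusted p = 0.516). A probe of each gene built on an expressed sequence tag, CCL3 A_73_P121271 and CCL4 A_73_P137086, was detected on 3 and 2 Sahiwal arrays and was not tested. The file gives the CCL3 tag on the opposite strand to the other CCL3 probes.

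CCL5 stood apart, being detected by all 3 probes in all 11 animals and higher in Ladakhi by 1 of them. A_73_P107666 (chromosome 19, 13977162 to 13977221) read 0.05, 0.87, 0.43, -0.54 and -0.04 in Ladakhi animals, against -1.91, -0.94, 0.19, -4.37, -2.70 and -1.08 in Sahiwal animals, where only animal 3 reached the Ladakhi range. The level was 0.15 ± 0.53 (SD, n = 5) in Ladakhi animals and -1.80 ± 1.59 (SD, n = 6) in Sahiwal animals, a difference of 1.96 (SE 0.63, adjusted p = 0.023). Without Ladakhi animal 2 the adjusted p was 0.0588.

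A_73_P049591, a second CCL5 probe, read 0.40, 0.87, 1.19, 1.04 and 0.58 in Ladakhi animals, against -0.75, 0.16, 1.49, -2.54, -0.99 and 0.26 in Sahiwal animals. Its difference of 1.21 (SE 0.54) did not pass (adjusted p = 0.0864), but did in 4 of 26 alternatives. The brightest probe, A_73_100958, read 3.17, 3.02, 3.14, 2.50 and 0.32 in Ladakhi animals, against 1.76, 2.26, 3.33, -0.45, 1.29 and 2.57 in Sahiwal animals, with animals 2 and 3 saturated. Its difference of 0.64 (SE 0.64, adjusted p = 0.444) is an upper limit because of that saturation. All 3 probes gave a positive difference, and Ladakhi animals were closer together than Sahiwal animals in each.

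**Figure D2:**
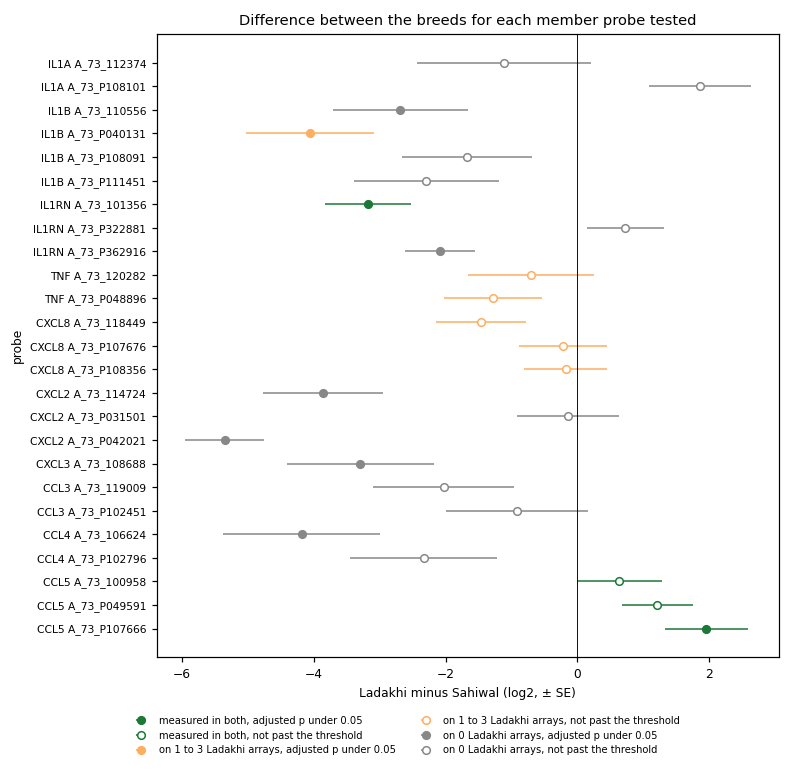
Difference between the breeds (horizontal axis, Ladakhi minus Sahiwal, log2, bars are ± 1 SE) for the 25 member probes tested, by how many Ladakhi arrays detected them. Filled points had an adjusted p under 0.05. GRO1 (A_73_P042021, listed with CXCL2) lies farthest to the left at -5.36, and the filled point to the right of 0 is CCL5 at 1.96. For probes on 0 Ladakhi arrays the Ladakhi side is a dim signal or surrogate, so these points are fitted values and not folds.

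Markers of the cells that make these messages are set beside the 32.7% of all 4048 probes measured in both breeds that differed. Of 9 monocyte marker genes measured in both, 3 were lower in Ladakhi, 1 was higher and 5 did not pass, with a median difference of -0.90. The lower ones were S100A8, LYZ and SPI1 and the higher one FCER1G. The summed marker level, as a mean over the 9, ran from -1.17 to -0.63 over the Ladakhi animals and from -0.95 to 0.87 over the Sahiwal animals. CD14, the classical monocyte surface marker, was detected on 1 Ladakhi and 6 Sahiwal arrays, and CD163 and ITGAM on 0 Ladakhi and 2 Sahiwal arrays each. Among 6 measured NK and cytotoxic genes, 3 were higher (CST7, GNLY and CTSW), 0 lower and 3 did not pass, with a median of 1.25 and list means of -2.16 to -0.70 in Ladakhi and -3.77 to -1.63 in Sahiwal. Among 7 measured T cell genes, 2 were higher, 0 lower and 5 did not pass, with a median of 0.76 and list means of -2.26 to -1.07 in Ladakhi and -3.29 to -1.97 in Sahiwal. The Sahiwal means of CST7, -4.33, the T cell gene CD2, -5.22, and the monocyte gene FCER1G, -3.98, lay below the mean Ladakhi limit of -3.66, so these could hardly be measured in both breeds without being higher in Ladakhi. The part of cell composition in the differences of IL1B, IL1RN, GRO1, CXCL2, CXCL3, CCL4 and CCL5 was not tested.

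Neutrophil genes, a check for granulocytes in a mononuclear preparation, were mostly not detected on the Ladakhi arrays and were detected to unequal degrees on the Sahiwal arrays. Of 15 with a probe, 10 were on 0 Ladakhi arrays and 4 were on all 6 Sahiwal arrays. CAMP, PGLYRP1 and EPX were on 0 arrays of either breed. CSF3R and BPI were on 0 Ladakhi and 6 Sahiwal arrays, LTF on 0 and 5, MMP9 on 0 and 4 and ELANE on 0 and 3. CATHL1 and CATHL4 were on 0 Ladakhi and 2 Sahiwal arrays, and MPO on 1 Ladakhi and 2 Sahiwal arrays. FCGR3A, which NK cells also express, was measured in both breeds and was lower in Ladakhi. Of the B cell genes 2 of 3 measured were higher and 0 lower, and the single measured platelet gene and red cell gene, PF4 and HBB, did not pass. The B cell gene MS4A1, on 3 Ladakhi arrays and so not measured in both, passed as lower, at -1.60 (limma adjusted p = 0.0171). List means ran from -0.51 to -0.11 over the Ladakhi animals and from -1.58 to -0.67 over the Sahiwal animals for the B cell genes. PF4 ran from 0.68 to 1.15 in Ladakhi animals, against -2.31 to 2.00 in Sahiwal animals, and HBB from -2.05 to -1.14 in Ladakhi animals, against -4.52 to 0.67 in Sahiwal animals. Their part in the results was not tested.

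The receptors and transducers of these cytokines did not move as one. Their counts stand beside the 32.7% of all 4048 probes measured in both breeds that differed, with 14.6% lower in Ladakhi. Of 4 measured genes for other interleukin 1 family members, their processing and receptors, 2 were lower and 2 did not pass, with a median of -1.08. These were PYCARD, the inflammasome adaptor, at -3.21 ± 1.43 (SD, n = 5) in Ladakhi animals and -1.29 ± 0.51 (SD, n = 6) in Sahiwal animals (adjusted p = 0.0116), and GSDMD, the pore protein through which interleukin 1 beta leaves the cell, at -2.20 ± 0.28 in Ladakhi and -1.30 ± 0.53 in Sahiwal (adjusted p = 0.0282). Of 7 measured transducers of the interleukin 1 and TNF receptors, RIPK1, a kinase bound to the TNF receptor complex, was higher, at -1.98 ± 0.23 (SD, n = 5) in Ladakhi animals and -3.29 ± 0.25 (SD, n = 6) in Sahiwal animals (adjusted p = 0.00121). The other 6, MYD88, IRAK1 and TNFRSF1B among them, did not pass, and the median was -0.63. Of 11 measured NF-kappa-B target and feedback genes, NFKBIA, the inhibitor that NF-kappa-B induces, was lower, at -0.79 ± 0.20 (n = 5) in Ladakhi and 1.14 ± 1.38 (n = 6) in Sahiwal, both SD (limma adjusted p = 0.0118), and 10 did not pass. The median of that list was -0.26, beside -0.02 for all 4048 probes measured in both breeds. Genes of these lists not measured in both breeds are outside these counts, and some passed in either direction, with dim Ladakhi signals among their values. Lower were CASP1, IRAK2, TAB1, TNFRSF1A, LTBR, SOD2, NFKBIZ and NFKBIE, and higher were IL18RAP, IRAK3, TNFAIP2 and TNFAIP6. They passed the filter through their Sahiwal arrays, so their number is not read as a result.

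No other inflammatory chemokine or cytokine of a list of 25, and no receptor of these chemokines of a list of 10, was measured in both breeds. Of the 24 with a probe in the first list, where CXCL5 and CXCL6 share 1 probe, 22 were on 0 Ladakhi arrays and 5 were on all 6 Sahiwal arrays. Of the 10 chemokine receptors, where CXCR1 and CXCR2 are represented by the same probe, 6 were on 0 Ladakhi arrays and 2 on all 6 Sahiwal arrays, while CCR2, ACKR1, ACKR2 and ACKR4 were on 0 arrays of Sahiwal.

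The 6 Sahiwal animals differed from each other in these genes more than in nearly all others. Of the member probes, 17 were well above background on all 6 Sahiwal arrays, 16 of them with a value on each. The SD of those 16 over the animals ran from 1.27 to 3.05 on the log2 scale, beside a median of 0.46 over all 14976 probes detected on the 6 arrays, and each exceeded the SD of at least 97.7% of them. In fold terms the range over the animals was 164-fold for CCL4 (A_73_P102796), 251-fold for CXCL3, 123-fold for CCL3, 14.8-fold for GRO1 and 12.2-fold for IL1RN. Animal 5 was the lowest in 13 of the 17 probes and animal 3 the highest in 13.

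**Figure D3:**
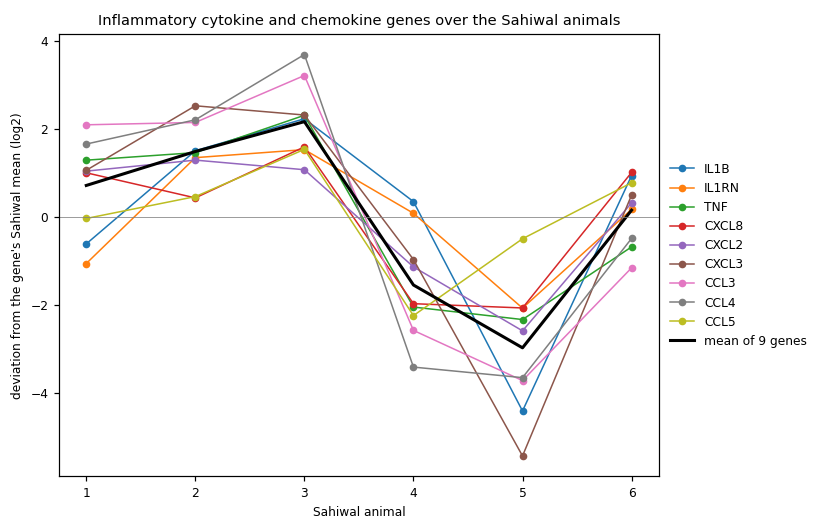
Deviation of 9 genes from their own Sahiwal mean (vertical axis, log2) in each of the 6 Sahiwal animals (horizontal axis), by 1 probe a gene, with the mean of the 9 in black and CXCL2 standing for the GRO1 probe. The mean runs from -2.98 in animal 5 to 2.17 in animal 3, and the lines of TNF, CCL3 and CCL4 have the same order of animals.

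Co-variation was measured over 9 genes, each by its brightest probe detected and with a value on all 6 Sahiwal arrays (for CCL4 the second probe). IL1A, not detected in animal 5, was left out. The IL1B probe was saturated in animal 2 and the CCL5 probe in animals 2 and 3, so r and the order of animals for these genes rest partly on capped values. The mean deviation of the 9 genes was 0.72, 1.49, 2.17, -1.55, -2.98 and 0.15 in animals 1 to 6. All 36 pairs had a positive Pearson correlation, from 0.41 to 0.996 with a median of 0.83, and Spearman's rho ran from 0.60 to 1 with a median of 0.80. In exact two-sided permutation tests over the 720 pairings, 12 of the 36 pairs passed after Benjamini-Hochberg adjustment over the 36, and 5 did by rho.

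The 12 pairs fell on a few genes. TNF, CCL3 and CCL4 ranked the animals identically, from 5 through 4, 6, 1 and 2 to 3, with r = 0.996 for TNF and CCL3, 0.995 for TNF and CCL4 and 0.984 for CCL3 and CCL4 (rho = 1, adjusted p = 0.01 by r and 0.02 by rho, exact permutation). IL1B and IL1RN formed a second pair, with r = 0.939 and the animals ordered from 5 through 1, 4, 6 and 2 to 3, while GRO1 and CXCL3 formed a further pair, with r = 0.97 and animal 2 the highest (same adjusted p for both pairs). The other pairs that passed by r joined GRO1 or CXCL3 to TNF, CCL3 or CCL4 (6 pairs, r from 0.854 to 0.927) and CXCL8 to CCL5 (r = 0.846, adjusted p = 0.0375). Neither IL1B nor IL1RN passed with another gene than the other of that pair, and the lowest correlation was that of IL1B and CCL5, at 0.408 (adjusted p = 0.382, exact permutation). With probes saturated on no Sahiwal array, an alternative chosen after seeing the data, IL1B has none and CCL5 is read by A_73_P049591, and 10 of 28 pairs passed. All 10 were among the 12, and the pair of CXCL8 and CCL5 was not (r = 0.818, adjusted p = 0.05, exact permutation).

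Leaving out 1 animal at a time gave a median r of 0.79 to 0.88 with all 36 pairs positive. With the 2 animals farthest from the median of the first gene of a pair left out, which were 4 and 5 in 18 pairs, 3 and 5 in 15 and 2 and 5 in 3, the median r over the other 4 animals was 0.30 and 31 of 36 pairs were positive. Leaving out the extremes narrows the range, and the part of this in the lower median r was not tested. In some pairs r rose instead, as for CXCL3 and CCL5, from 0.518 to 0.908. The tightest pairs kept their correlation over the 4 animals, at 0.996 for TNF and CCL3, 0.986 for TNF and CCL4, 0.967 for CCL3 and CCL4, 0.963 for IL1B and IL1RN and 0.846 for GRO1 and CXCL3. That of GRO1 and CXCL8, 0.902 over all 6, became -0.21. Within the slide that held animals 3 to 6, the median r was 0.86 and all 36 pairs were positive, while the other slide held 2 animals, too few for a value. The points of each pair share their array and its scaling.

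**Figure D4:**
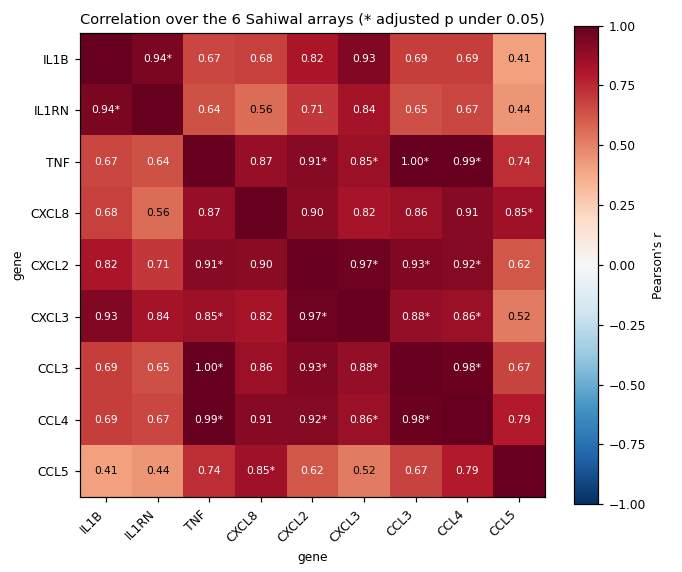
Pearson's r between 9 genes over the 6 Sahiwal arrays, with colour from -1 to 1 and the value in each cell. CXCL2 stands for the GRO1 probe. An asterisk marks the 12 pairs with an adjusted p under 0.05 (exact permutation, Benjamini-Hochberg over 36 pairs).

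Probes of a gene ordered the animals alike for some genes and not for others. The 2 TNF probes, and likewise the 3 CXCL8 probes, gave identical orders, whereas the 4 IL1B probes gave 3 orders, the 3 CCL5 probes 2, and the 3 IL1RN and the 3 CCL3 probes 3 each, counting values not well above background. Animal 5 was not the lowest in 4 of the 17 probes, which were the 3 CCL5 probes, where animal 4 was lowest, and IL1RN probe A_73_P362916, where animal 1 was lowest and animal 6 highest. The orders of the 5 Ladakhi animals were not compared, since only CCL5 and IL1RN were measured in them.

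Of the cell marker lists, those of NK and cytotoxic cells, T cells and red cells had animal 3 highest, as the cytokine genes did, while those of monocytes, neutrophils and platelets had animal 6 highest and that of B cells had animal 3 lowest. The mean deviation of 16 monocyte markers over Sahiwal animals 1 to 6 was -0.77, -0.64, 0.09, 0.68, -0.41 and 1.04, so that animals 4 and 6 were highest for monocyte markers, while animal 4 was next to lowest for the cytokine genes. The 4 neutrophil genes detected on all 6 arrays gave -0.90, -1.13, -0.47, 1.29, -0.62 and 1.83, with animals 6 and 4 highest again. The 10 T cell markers ran from -0.83 in animal 4 to 0.57 in animal 3, and the 7 NK and cytotoxic markers from -1.06 in animal 4 to 0.83 in animal 3, the same lowest and highest animals as CCL5. The 4 platelet genes ran from -1.87 in animal 1 to 1.14 in animal 6, the 2 red cell genes from -1.22 in animal 1 to 2.12 in animal 3, and the 6 B cell genes from -1.03 in animal 3 to 0.53 in animal 5. Spots well above background numbered 20574, 17853, 17517, 18866, 20408 and 17869 in animals 1 to 6. The part of cell composition in the animals' order was not tested.

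**Figure D5:**
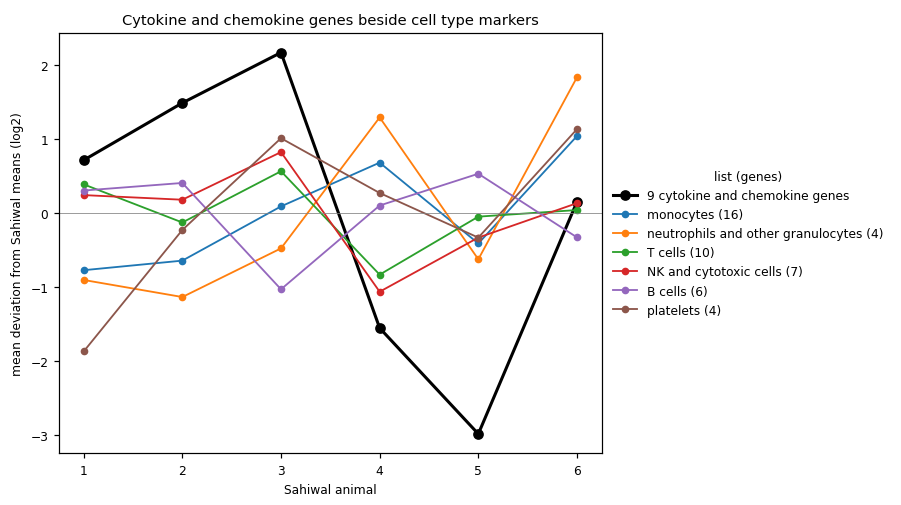
Mean deviation from the Sahiwal mean (vertical axis, log2) of 9 cytokine and chemokine genes (black) and of cell type marker lists with at least 4 genes detected on all 6 arrays, in each Sahiwal animal. The black line is lowest in animal 5 at -2.98, where the monocyte line is at -0.41, and the monocyte line is highest in animal 6 at 1.04.

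Pathway lists followed the cytokine genes to unequal degrees. The 5 other inflammatory cytokine and chemokine genes detected on all 6 arrays gave -0.30, 0.80, 1.09, -0.78, -0.89 and 0.08 in animals 1 to 6, and 19 NF-kappa-B target and feedback genes 0.09, 0.42, 0.79, -0.28, -1.07 and 0.05. Both had animal 3 highest and animal 5 lowest. The 17 receptor transducers stayed within -0.15 and 0.19, and the 8 other interleukin 1 family genes ran from -0.73 in animal 2 to 0.78 in animal 6.

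Among 7434 other genes detected on all 6 arrays without saturation, the pattern most like the mean of the 9 genes was that of IL10, the anti-inflammatory cytokine, with r = 0.981 over the 6 animals. Its level was -4.41, -3.20, -2.67, -6.47, -7.55 and -5.46 in animals 1 to 6, in the same order as TNF. The next were SNN, HYPK, RASGEF1B, PDK2, PLEK, RNF19B and H2AX, with r from 0.97 to 0.978. Of these, RASGEF1B, a guanine nucleotide exchange factor of Ras-like proteins, and PLEK, a cytoskeletal adaptor of platelets and leukocytes, ranged over 4.43 and 4.02 on the log2 scale, whereas HYPK, PDK2 and H2AX ranged over less than 0.90. The 4 with the most opposite pattern were SMAD4, CCDC86, ANKRD49 and TCFL5, with r from -0.995 to -0.987. In all, 81 genes had r of at least 0.9 and 220 had r of at most -0.9, and the median over the 7434 was -0.33. These are descriptions over 6 animals.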

How the data were processed

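The processed files hold total RNA hybridised to 1-colour bovine arrays, 1 array for each of 5 Ladakhi and 6 Sahiwal animals. The deposited intensity values are, per the file headers, Cy3 signals from Feature Extraction, version 12.0.1.1 with an Agilent scanner for Ladakhi and version 9.5.3.1 with an Axon GenePix scanner for Sahiwal, after background subtraction and with a surrogate for signals not above background. A value table by the authors, on a log2 scale, was used too, and its scaling between arrays is not given in the sources used here. Its base and its direction within breeds match the scanner values. Its columns each matched a different animal of the breed from the one in the column name, so it served only as an alternative for the breeds, and animal numbers here are those of the scanner files. Its column medians were 1.60 to 2.32 in Ladakhi and -0.73 to 0.00 in Sahiwal.

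Control spots were left out, outlier-marked spots set missing, spots of a probe averaged, and log2 of the processed signal taken relative to the array's own 75th percentile of the 2705 probes well above background on all arrays. Probes detected on 4 or more arrays of either breed (17865) were tested with limma 3.58.1 (lmFit, eBayes, two-sided, Benjamini-Hochberg) in R 4.3.3. Each animal is a separate sample. A probe on 0 Ladakhi arrays was given as "at least" a fold, the Sahiwal mean over the Ladakhi mean of the higher of the array's lowest signal well above background and the probe's own signal. Precision is limited by how few arrays there are and by the dim Ladakhi signal. The fit was tested on simulated data. A list gene was represented by its brightest probe, measured in both breeds where possible, and named if it was among the 2 largest called differences of a list. The genes of like pattern were the 8 highest and 4 lowest by r. The 10 genes and all lists were chosen with earlier results of these data known. S100A8, LYZ, SPI1, FCER1G, CST7, GNLY, CTSW, CD2, FCGR3A, PF4, HBB, MYD88, IRAK1 and TNFRSF1B were named after their values were seen. So were the list genes not measured in both breeds and the list members given only by detection. Positions are on HGSC Btau_3.1, and RefSeq symbols from ARS-UCD2.0 were used for names only. Animals with the same number in both breeds did not deviate together (correlations of their deviations from -0.05 to 0.02), so the numbers do not pair them. Alternatives covered scaling, background correction, filters, dim and saturated signals, slide, animal number, variance and each array left out.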

Additional observations from a re-analysis of the deposited data

Results flagged for a closer look

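CCL5 probe A_73_100958 read 0.32 in Ladakhi animal 5, far below the next Ladakhi animal at 2.50, a gap of 0.767 of the range of the 5 animals. In the other 2 CCL5 probes the same animal read 0.58 and -0.04, inside the range of the other Ladakhi animals. This array is the only one of its slide. Of 19 sets of values examined, 1 was marked in this way, and chance marks about 5% of them.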

How the results depend on the processing

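The count of changed member probes, 9, was 15 with quantile normalization, 1 with only probes detected on all 11 arrays, 9 with the replicate block and 7 to 15 with 1 animal left out, the 15 being without Sahiwal animal 5. The count over all probes, 7474, was 12680 with normexp background correction, 12449 with dim signals raised to the array's limit, 1100 with only probes detected on all 11 arrays and 34472 with no filter on dim probes, as the last 2 change the number tested. Of the 36 correlations, 12 passed, 10 of 28 with unsaturated probes, 19 with the 75th percentile over all probes and 0 with any 1 Sahiwal animal left out, where 5 arrays allow no p below 0.00833 and the median r was 0.79 to 0.88. Of 426 values for 17 member probes, 372 kept direction and call, 32 lost the call, 11 gained it and 11 turned sign. The sign turned for TNF A_73_120282 (0.0752 with normexp, 1.09 with raised dim signals), CXCL8 A_73_P107676 (0.56 and 0.51, and -0.67 to 0.16 with 1 animal left out) and CXCL8 A_73_P108356 (0.35 and 0.0903, 0.0487 with the replicate block, and -0.62 to 0.10 with 1 animal left out). Calls were lost mostly for IL1B A_73_110556 (19) and CXCL3 (9). CXCL2 A_73_114724 lost its call with normexp (adjusted p = 0.109) and raised dim signals (adjusted p = 0.0627), and CCL4 A_73_106624 with raised dim signals (adjusted p = 0.063). The cause was not tested. Quantile normalization, cyclic loess and normexp moved the median of all measured probes by 0.19, 0.43 and 0.29, and those values are relative to that shift. The animal number as a block ended the IL1B A_73_110556 call (adjusted p = 0.0771) and no other call among these probes. The dim Ladakhi signal limits every probe whose Sahiwal mean is near -3.66 or lower.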

Other observations

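The 2 IL1RN probes detected on all 6 Sahiwal arrays did not follow the same order of animals. A_73_101356 had animals 3 and 2 highest, at 1.90 and 1.72, as IL1B did. A_73_P362916 (chromosome 11, 48542902 to 48542961) had animals 6 and 4 highest, at -2.09 and -2.86, as the monocyte markers did, and animal 1 lowest, at -5.34. Both are built on the same RefSeq record. The difference between the probes was not tested.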
